A study of Mus musculus with 47 samples.

Results

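The cytosolic ribosomal protein genes encode the proteins that, with ribosomal RNA, build the small and the large subunit of the ribosome. They were chosen by gene symbol alone, as rows named Rps or Rpl with a number, with Rpsa, Rplp0, Rplp1 and Rplp2 added and with pseudogene rows and kinases left out. The table of allelic counts held 74 of them among 13947 genes. Of these, 29 encode small-subunit proteins, 42 large-subunit proteins and 3 the stalk, the large-subunit arm that recruits elongation factors. All 74 were placed on the mouse genome (GRCm38, GENCODE M21), 72 on autosomes and 2, Rpl10 and Rps4x, on the X chromosome. A further 9 protein-coding genes whose names fit the rule, among them the X-linked Rpl36a and Rpl39, were not analysed here.

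Ribosomes need 1 copy of almost every protein, and the genes are known for high and parallel expression that grows with the rate of cell growth. They lie scattered over the chromosomes, and mammalian genomes hold many processed pseudogenes of them, which are copies of the spliced mRNA pasted back into DNA. Several have a functional second copy as well, such as Rpl10l and Rpl39l, which are known from the male germ line.

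The cells were induced pluripotent stem cells, reprogrammed with lentiviral Oct4, Sox2, Klf4 and c-Myc from embryonic fibroblasts of a hybrid mouse. Its mother was Mus musculus musculus (Mus) and carried a transgenic eGFP on the X chromosome, and its father was Mus musculus castaneus (Cast), so a read over a strain difference can be given to an allele. The 47 cells came from 1 plate and fell into 3 classes by the column names. In 23 cells (X-Mus X-Cast) both X chromosomes were present, 15 cells (X-Cast O-Mus) had the Cast X only and 9 cells (X-Mus O-Cast) the Mus X only. The labels name no cultures, clones or days, so each class counts as 1 sample, no test was run between classes, and a gain or loss in a class cannot be told apart from a difference between clones.

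The cells held 71682 to 216451 allelic counts each (median 167041). Levels are given as allelic counts of both alleles per 10000 allelic counts of the cell. Allelic counts need strain differences, whose number per gene is not known here, so levels are compared between cells and not between genes. All 9 naive pluripotency markers had counts in at least 30 cells, and their summed level had class medians of 46.4 (24.1 to 65.4) with both X chromosomes, 40.5 (21.1 to 49.2) with the Cast X and 35.7 (18.7 to 47.5) with the Mus X. Of the fibroblast markers, Col1a2 had 0 counts and Col1a1 13 counts in 4 cells, while Fn1 and Vim were found in 47 and 34 cells. The summed level of the 8 fibroblast markers had a median of 11.95 in X-Cast O-Mus cells (range 4.45 to 31.2), 5.50 (2.15 to 15.8) in the X-Mus X-Cast class and 6.00 for the X-Mus O-Cast class (range 4.24 to 13.2), and its part in any class difference below was not tested.

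All 74 genes had at least 1 count, and 44 had counts in every cell. A cell held counts for 55 to 66 of them (median 61). Allelic counts were unevenly spread: Rplp0, the stalk base, had 28360, Rps9 24212, Rps19 20241, Rps27l 19311 and Rpl34 12916. At the other end, Rpl17 had 7 counts in 2 cells, Rpl31 11 in 3 cells and Rps16 17 in 6 cells. The other stalk genes were thinly covered, with 492 counts for Rplp1 and 84 for Rplp2. Rpl5, which forms the 5S particle with Rpl11, had 26 counts against 987 for Rpl11.

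Summed over the 74 genes, ribosomal protein counts made up 3.97% of the allelic counts of the median X-Mus X-Cast cell (3.47 to 4.33%). The median X-Cast O-Mus cell was at 3.83% (3.37 to 4.46%) and the median X-Mus O-Cast cell at 4.37% (3.74 to 6.84%). The ranges of all 3 classes overlapped, but 6 of 9 X-Mus O-Cast and 3 of 15 X-Cast O-Mus cells exceeded the X-Mus X-Cast maximum. The 2 highest cells were both X-Mus O-Cast, at 6.84% and 5.39%. The first was the cell of fewest counts, 71682, and the second had a mitochondrial share of 9.47%, against a median of 22.1% over all cells. Without these 2 cells the X-Mus O-Cast median was 109.7% of the X-Mus X-Cast median, and 4 of the 7 cells left were above the X-Mus X-Cast range. With mitochondrial counts left out of the denominator, the medians were 4.98%, 4.86% and 5.28%, and fewer cells exceeded the X-Mus X-Cast maximum, then 5.71%. Above it were only the X-Mus O-Cast cells at 8.50%, 5.96% and 5.72% and the X-Cast O-Mus cells at 5.93% and 5.83%. Of these, 8.50% and 5.96% belong to the 2 highest cells named above. The median mitochondrial share was 22.9%, 22.9% and 18.4% in the classes.

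**Figure D1:**
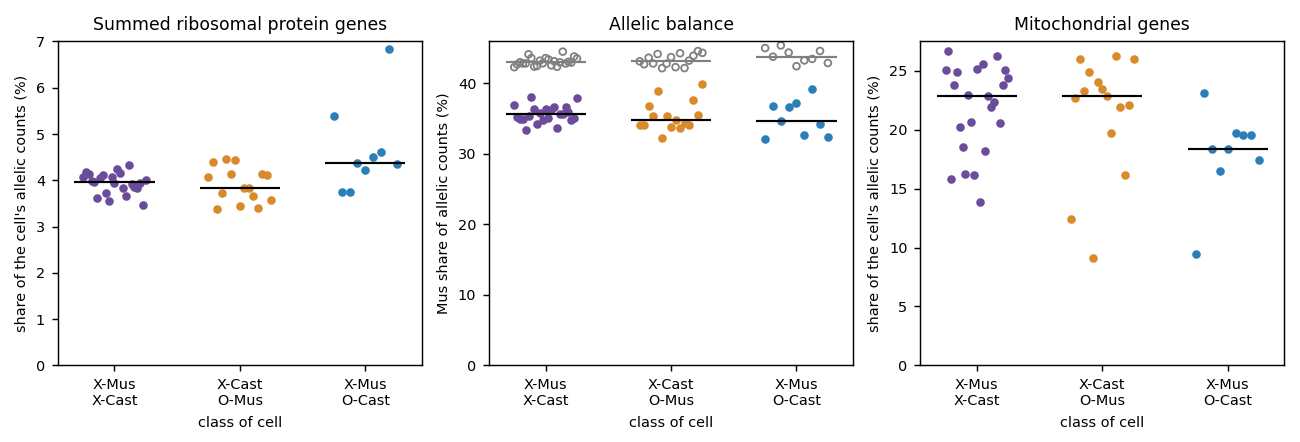
Each point is 1 cell and each bar a class median: the summed ribosomal protein genes in percent of the cell's allelic counts (left), the Mus share of the summed autosomal ribosomal protein genes in filled points with all other autosomal genes in open grey points (middle), and the mitochondrial share (right). The 2 cells of highest ribosomal protein share, 6.84% and 5.39%, are X-Mus O-Cast, and in all 47 cells the filled point lies below the open one.

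Small-subunit genes held a median of 2.02% of a cell's counts (1.60 to 4.08%) and large-subunit genes without the stalk 1.61% (1.35 to 2.44%). These sums depend on the strain differences in each gene, so they are not compared with each other. Across the 47 cells the shares of the subunits rose and fell together, with Pearson's r of 0.89 and Spearman's rho of 0.72. Both shares have the same cell total as denominator. Without the 2 cells farthest from the median r was 0.67. Within the 23 X-Mus X-Cast cells r was 0.40, and 0.22 without the 2 farthest.

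Many of these genes were counted mostly from one allele. Of the 63 autosomal members with at least 100 counts, 22 had a Mus share under 15% and 5 a share over 85%, limits that the study uses for allelic ratios. Together 27 of 63, or 42.9%, lay outside the limits. Over all 6089 autosomal genes with 100 counts the figure was 10.7%, with 8.9% under 15% and 1.77% over 85%. Under 5% lay 9 members and over 95% lay 3, against 4.06% and 0.755% of all autosomal genes. With at least 2000 counts per gene, 18 of 36 members and 12.9% of 611 autosomal genes lay outside.

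The 5 lowest Mus shares all belonged to well-covered genes. Rpl30, a large-subunit protein, had 0 Mus counts of 4673, which allows a Mus share of up to 0.0642% by a limit of 3 counts, and the upper bound of the 95% Clopper-Pearson interval was 0.0789%. Rps29, a small zinc-binding protein of the small subunit, was at 0.15% (95% Clopper-Pearson interval 0.093 to 0.24%) and Rps9, a small-subunit protein at the mRNA entry channel, at 0.57% (0.48 to 0.67%). The remaining 2 were the large-subunit genes Rpl19 at 0.73% (0.57 to 0.91%) and Rpl34 at 1.29% (1.10 to 1.49%). In single cells these low shares held: the highest share in any cell with at least 20 counts was 4.10% for Rps29, 3.92% for Rps9, 5.23% for Rpl34 and 11.3% for Rpl19. Intervals and limits cover counting error only, since counts of 1 molecule at several positions or from several PCR copies are not independent.

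At the upper end, X-linked Rps4x reached 98.6% in X-Mus X-Cast cells (98.2 to 98.9%). Of the autosomal genes Rps19 was at 98.2% (97.98 to 98.4%), Rps26 at 97.1% (96.3 to 97.8%), Rpl7a at 96.2% (95.4 to 96.9%), Rpl35a at 94.97% (93.9 to 95.9%) and Rps18 at 93.3% (92.6 to 94.0%). Nearest to the lower limit were Rpl10a at 13.7% inside the low group and Rpl24 at 15.5% outside it, and Rps18 was the member of the high group nearest to the upper limit.

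**Figure D2:**
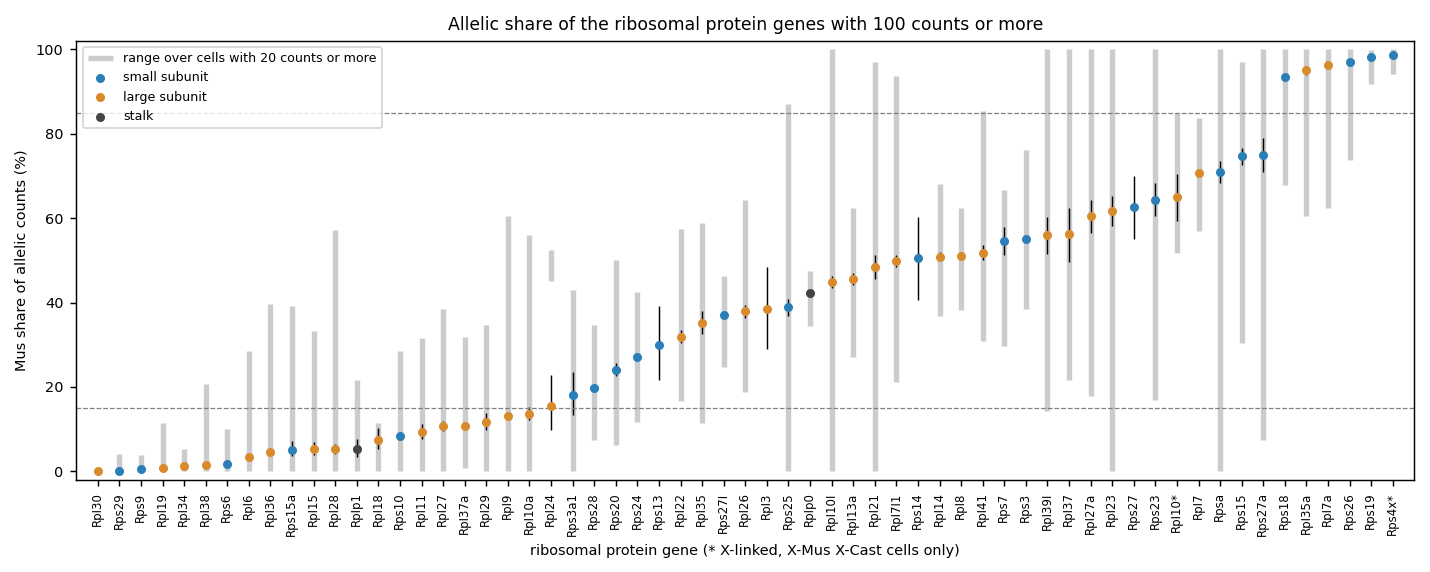
Mus share of allelic counts in percent for 61 ribosomal protein genes with at least 100 counts, ordered by share, with 95% Clopper-Pearson intervals (black) and the range over single cells with at least 20 counts (grey). Dashed lines mark 15% and 85%; 21 of the autosomal genes drawn lie under the lower line and 5 over the upper one.

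Genes of 1 chromosome carried opposite shares. On chromosome 7, Rps9 (chr7:3703993-3706897, plus strand) was at 0.57% and Rps19 (chr7:24884371-24889806, plus strand) at 98.2%, while Rpl13a (chr7:45125558-45128761, minus strand) was at 45.5% and all other genes of the chromosome summed to 44.9%. On chromosome 1 other genes summed to 31.1% Mus, while Rpl7 was at 70.8% (69.9 to 71.7%) and Rpl37a at 10.8%. Of these genes Rpl13a was close to its chromosome's share, and the other 4 were not.

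The subunits differed little in the middle of their distribution, with a median Mus share of 38.8% over 27 small-subunit and 33.6% over 34 large-subunit genes. Below 15% lay 6 small-subunit genes, 15 large-subunit genes and the stalk gene Rplp1. Above 85% lay 3 small-subunit and 2 large-subunit genes. Among genes mutated in Diamond-Blackfan anaemia, an inherited failure of red cell formation, Rps19, Rps26 and Rpl35a were nearly all Mus and Rps10 (8.42%) and Rpl11 (9.32%) mostly Cast, with Rps24 at 27.1% and Rps7 at 54.6%. Outside the rule, Fau, whose product contains the small-subunit protein eS30, was at 2.02% Mus, and Rack1, a small-subunit scaffold, at 45.6%.

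The annotated transcripts of each gene were searched for stretches of 50 bases that also occur in transcripts of pseudogenes. Among all 74 genes, 72 shared at least 1 such stretch with a median of 8 annotated pseudogenes, and Rpl39l was 1 of the 2 without. In the 27 genes outside the limits a median of 32.2% of stretches was shared (5.06 to 84.6%), and in the 36 genes between the limits 27.7% (0 to 71.0%). The ranges overlapped almost wholly, so the measure did not separate the groups. It counts exact matches between reference transcripts and uses no reads, so it cannot show whether pseudogene reads entered a share. Rpl7a, at 96.2% Mus, shared 81.2% of its stretches with 120 pseudogenes, whereas Rps9, at 0.57% Mus, shared 12.4% with 1 pseudogene.

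Of 23 pseudogene rows of these genes in the table, 19 had a count and 4 had at least 100. The row Rps16-ps2, a processed pseudogene at chr5:129128077-129128517, had 1872 Cast counts and 1 Mus count, with counts in all 47 cells. Its parent Rps16 (chr7:28350652-28353155, plus strand), which sits in the small subunit near the decoding site, had 17 counts in 6 cells. The 441 coding bases of Rps16 and the 441 bases of the pseudogene were identical, so the reference holds no base within the coding sequence that separates them. The start of both is shown to make this visible, from the GENCODE M21 transcripts, over chr7:28350804-28350993 (plus strand, across an intron) and chr5:129128468-129128517 (minus strand).
Rps16: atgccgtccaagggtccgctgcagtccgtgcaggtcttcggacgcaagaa
Rps16-ps2: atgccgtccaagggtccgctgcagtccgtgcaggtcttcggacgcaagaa

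X-linked Rps4x could be followed in cells that lack a Cast or a Mus X. Rps4x (chrX:102184941-102189394, minus strand) encodes a small-subunit protein. In X-Mus X-Cast cells its row held 67 Cast and 4765 Mus counts. The X-Cast O-Mus class had 89 and 2, and the X-Mus O-Cast class 0 and 2407. The row Rps4x-ps, a processed pseudogene on chromosome 5 (chr5:3875362-3876154, plus strand), held 2069 Cast and 2 Mus counts, 1479 Cast and 0 Mus counts, and 6 Cast and 0 Mus counts in the same classes. Cast counts of this autosomal row were therefore found in 23 of 23 and 15 of 15 cells that hold a Cast X, and in 2 of the 9 cells that do not. Rps16-ps2, on the same chromosome 5, had Cast counts in all 9 of those cells, 406 in sum.

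Over 790 aligned bases the Rps4x coding sequence and Rps4x-ps shared 97.8% and differed at 17. Of the stretches of 50 bases of the coding sequence, 19.4% occur unchanged in the pseudogene. The first line pair shows an identical stretch, bases 90 to 139 of both (chrX:102187945-102187994, minus strand, and chr5:3875451-3875500, plus strand). The second shows bases 237 to 286, where the 3 differences are in capitals; in Rps4x this stretch spans a splice junction between chrX:102187429 and chrX:102187847.
Rps4x identical stretch: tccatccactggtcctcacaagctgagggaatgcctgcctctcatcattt
Rps4x-ps identical stretch: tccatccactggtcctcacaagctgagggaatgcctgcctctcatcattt
Rps4x differing stretch: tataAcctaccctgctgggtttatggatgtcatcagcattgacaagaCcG
Rps4x-ps differing stretch: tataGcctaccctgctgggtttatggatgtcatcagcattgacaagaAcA
How reads were divided between the rows was not tested, since the reads were not used here.

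Read alone, the Rps4x row had a median level of 12.7 in X-Mus X-Cast cells (9.33 to 19.02), 0.27 with the Cast X only (0 to 1.01) and 15.8 with the Mus X only (12.1 to 24.1). The class means were 2.83% and 130.8% of the X-Mus X-Cast mean. With both rows summed, a choice made after the pseudogene counts had been seen, the level was 18.3 ± 2.93 (SD, 23 cells) in X-Mus X-Cast cells (13.5 to 25.6), 6.29 ± 1.42 (15 cells) in X-Cast O-Mus cells (range 3.68 to 8.39) and 16.8 ± 4.38 (9 cells) for the X-Mus O-Cast class (range 12.1 to 24.3). The X-Cast O-Mus cells were thus at 34.3% and did not overlap the X-Mus X-Cast cells, while the X-Mus O-Cast cells were at 91.6% and overlapped them. Other X-linked genes with at least 100 counts summed to 56.9% and 55.8%. Of 107 X-linked genes, 67.3% were lower by 1.5-fold in each class, and 2.8% and 3.74% were higher. In X-Mus X-Cast cells the summed rows were 69.1% Mus (68.0 to 70.1%), against 49.3% for the summed other X-linked genes. Taken per allele, the Cast level of both rows was 6.29 ± 1.42 in X-Cast O-Mus and 5.71 ± 1.27 in X-Mus X-Cast cells, or 110%, and the Mus level 16.8 ± 4.35 in X-Mus O-Cast and 12.6 ± 2.13 in X-Mus X-Cast cells, or 133%. For both alleles the ranges over cells overlapped. Over its annotated transcripts, Rps4x shared 72.2% of stretches of 50 bases with 10 pseudogenes, and only the Rps4x-ps row was added here. Whether Rps4x reads were counted at any other pseudogene was not tested. The summed levels, Mus share and per-allele values therefore describe these rows and are not a measure of the gene's dosage.

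**Figure D3:**
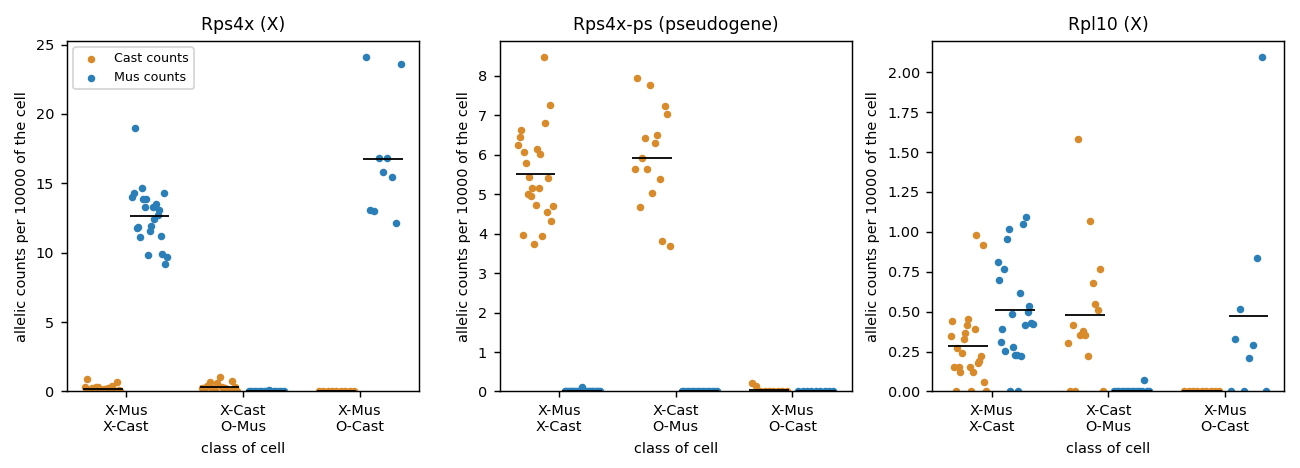
Cast and Mus counts per 10000 of the cell for Rps4x, its pseudogene row and Rpl10 in each cell, with means as bars. Cast counts of the pseudogene row are seen in cells with a Cast X and are at or near 0 in the 9 X-Mus O-Cast cells.

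Rpl10 (chrX:74270812-74273135, plus strand) encodes a large-subunit protein needed for subunit joining. It was covered by 470 counts in 40 cells. Its level was 0.79 ± 0.46 in X-Mus X-Cast cells (0 to 2.03), 0.48 ± 0.43 in X-Cast O-Mus cells (range 0 to 1.58) and 0.48 ± 0.67 for the X-Mus O-Cast class (range 0 to 2.09). The classes overlapped, and the means of the single-X classes were 61.1% and 60.03% of the X-Mus X-Cast mean. Without the X-Mus O-Cast cell of fewest counts, which had the highest level of its class (2.09), the X-Mus O-Cast mean was 34.5% of the X-Mus X-Cast mean. The summed autosomal ribosomal protein genes of the same cells were at 102.4% and 117%. The 55 counts of X-Mus O-Cast were all Mus, and 120 of the 121 of X-Cast O-Mus were Cast.

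Summed over the autosomal members, the Mus share of a cell had a median of 35.3% (32.1 to 39.8%), below that of all other autosomal genes of the same cell in 47 of 47 cells. The median difference was -7.79 percentage points, and in the classes it was -7.49, -7.79 and -10.3 points for X-Mus X-Cast, for X-Cast O-Mus and for X-Mus O-Cast cells. The 36 genes between the limits had a summed share of 45.3% in the median cell (37.8 to 49.2%). The 5403 other autosomal genes between the same limits were at 45.96% (44.9 to 48.1%), a choice made after the results were seen. The median difference was then -0.83 points (-9.85 to 2.74), with the ribosomal protein genes lower in 32 of 47 cells. Both sets were chosen on the share that is compared, so these values are a description only.

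The genes between the limits also had extreme shares in some single cells. Of 1054 pairs of such a gene and a cell with at least 20 counts, 11.5% were outside 15 to 85% Mus, against 25.8% of 64136 pairs for other autosomal genes between the limits. Pairs of more counts scatter less, and counts were not matched between the groups, so no difference is read from these shares.

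Among 44 members with a median of at least 20 counts, the spread of the per-cell share was a median of 2.11 times that of counting error alone. It was among the smallest for Rpl35, which lies at the exit of the peptide tunnel (1.28 times), and Rplp0 (1.42 times). Rplp0 ran from 34.5 to 47.4% Mus over all 47 cells, and none was outside 15 to 85%. The spread was largest for Rpl10l (5.36 times), Rpl19 (4.13 times) and Rpl9 (3.91 times). Rpl10l was the opposite of Rplp0: 44.9% Mus in all, but 9 of 43 cells were under 15% and 7 over 85%, with 4 cells all Cast and 4 all Mus. Rpl19 and Rpl9, both large-subunit genes, had a spread of another shape: 37 and 15 of 47 cells held no Mus count and single cells reached 11.3% and 60.4%.

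Cast and Mus counts of the members moved together across cells. The summed Cast and summed Mus shares of the cell had r = 0.83 and rho = 0.72 over 47 cells. Without the 2 cells farthest from the median r was 0.62. Within the 23 X-Mus X-Cast cells r was 0.70, and 0.59 without the 2 farthest. The same sums over other genes are not given here. For the 33 genes that averaged 5 or more counts from each allele, the median rho between a gene's own alleles was 0.24, against 0.22 for 1860 other autosomal genes. Rplp0 had the highest value, 0.80, followed by Rpl13a at 0.62 and Rps27l at 0.58. All these values share the cell total.

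Between genes, the median co-variation was low. The 57 autosomal members that averaged 5 or more counts in a cell gave 1596 pairs with a median rho of 0.067 over 47 cells (quartiles -0.058 and 0.20). Pairs of other autosomal genes had a median of 0.012. For the 37 members that averaged 40 or more counts the median was 0.15, against 0.014 for 624 other genes. A rho over 0.3 was found in 11.5% of the 1596 pairs and 2.88% of pairs of other genes, and in 20.7% and 4.13% where genes averaged 40 or more counts. Within the 23 X-Mus X-Cast cells the members' median was 0.023, against 0.007 for other genes. There, 11.2% and 8.89% of pairs had a rho over 0.3. All pairs share the cells and their totals, and the values are given as a description.

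Rps24, Rps28 and Rpl34 had the highest median rho with the other members (0.21, 0.20 and 0.20). Rpl18, Rpl27a and Rpl11 had the lowest (-0.10, -0.086 and -0.081). The pair of highest rho was Rps28 with Rps29 at 0.60, both proteins of the small subunit, and the lowest was Rpl10l with Rps15 at -0.67. Both values are over all 47 cells and mix the classes. Rpl10l was lower in both single-X classes and Rps15 higher in X-Mus O-Cast cells, and the part of these differences in the rho was not tested. Across 47 cells the summed share of the members had rho = 0.30 with 13 translation genes that share their 5′ pyrimidine tract, -0.091 with 25 ribosome biogenesis genes, -0.36 with the 9 naive markers, -0.38 with the mitochondrial share, -0.32 with the number of genes with a count and -0.25 with depth. Pearson's r was -0.11, -0.11, -0.39, -0.35, -0.56 and -0.52 in the same order, so for the translation genes r and rho had opposite signs. Without the 2 cells of highest ribosomal protein share r was 0.34, 0.0089, -0.23, -0.32, -0.11 and -0.18. Within the X-Mus X-Cast cells rho was 0.42, -0.076, -0.37, -0.10, -0.45 and -0.32.

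Class differences were few. Of the 57 autosomal members, 1 was more than 1.5-fold higher in X-Cast O-Mus than in X-Mus X-Cast cells and 3 were lower, against 16.6% and 13.3% of 4033 autosomal genes. The median log2 fold was 0.03 for the members and 0.03 for all autosomal genes. In X-Mus O-Cast cells 6 were higher and 5 lower, against 19.4% and 18% of autosomal genes, with medians of 0.23 and 0.04. Within 1.5-fold lay 93.0% and 80.7% of the members, and 70.1% and 62.6% of all autosomal genes. Where genes averaged 20 or more counts, the shares were 97.8% and 88.9% for 45 members and 84.2% and 77.1% for 1421 autosomal genes, where 8.23% and 7.53% were higher and lower in X-Cast O-Mus and 12.2% and 10.7% in X-Mus O-Cast cells. Of those 45 members, 0 were higher and 1 lower in the first comparison, and 3 higher and 2 lower in the second. Both comparisons use the same X-Mus X-Cast cells.

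**Figure D4:**
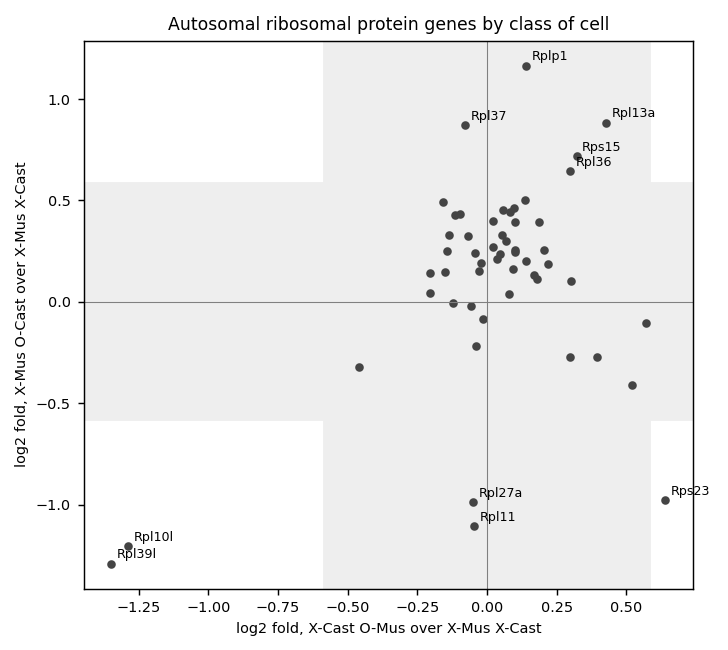
Log2 fold of mean level over X-Mus X-Cast cells for 53 autosomal ribosomal protein genes, X-Cast O-Mus on the horizontal and X-Mus O-Cast on the vertical axis; grey bands mark 1.5-fold, and genes outside a band are named. The axes share the X-Mus X-Cast cells; Rpl10l and Rpl39l stand apart at the lower left.

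The genes lowest in both single-X classes were copies of X-linked ribosomal protein genes. Rpl10l (chr12:66283379-66284401, minus strand) had a median level of 8.12 in X-Mus X-Cast cells (2.75 to 17.6), 3.36 in X-Cast O-Mus cells (range 0.65 to 8.90) and 3.49 for the X-Mus O-Cast class (range 0.52 to 7.64). It lay below the X-Mus X-Cast median in 14 of 15 and in 9 of 9 cells, and below the lowest X-Mus X-Cast cell in 6 and 4, so the classes overlapped. The log2 fold of the means was -1.29 and -1.21. Both alleles took part: the Mus share was 44.5%, 48.5% and 41.1% in the 3 classes, and the other genes of chromosome 12 had log2 folds of 0.00 and 0.13.

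The Rpl10l coding sequence is as long as that of Rpl10, 645 bases, with 84.8% identity and 98 differences. The stretch with most differences, bases 338 to 387 with 13, is printed to show how far apart this pair is. None of the Rpl10 stretches of that length occurs in Rpl10l. It lies at chrX:74272680-74272729 (plus strand) in Rpl10 and at chr12:66283971-66284020 (minus strand) in Rpl10l, with differences in capitals.
Rpl10: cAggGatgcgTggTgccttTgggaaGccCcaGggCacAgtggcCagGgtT
Rpl10l: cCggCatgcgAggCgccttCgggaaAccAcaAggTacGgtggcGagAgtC

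Rpl39l (chr16:10170226-10174911, plus strand), the autosomal copy of Rpl39 in the peptide tunnel, was covered by 526 counts in 30 cells. Its median level was 0.71 in X-Mus X-Cast cells (0 to 4.21), 0.28 in X-Cast O-Mus cells (range 0 to 1.27) and 0 for the X-Mus O-Cast class (range 0 to 2.03), with log2 folds of -1.35 and -1.29. A single X-Mus O-Cast cell held 78.2% of that class's counts, and without it the fold was -2.35. With the mean of log values in place of the log of the mean, the folds of Rpl39l were -0.38 and -0.46, within 1.5-fold, while those of Rpl10l were -1.12 and -1.12.

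The other copies did not stand apart. Rps27l, the copy of Rps27, was at -0.20 and 0.04, but the second value rested on the X-Mus O-Cast cell of fewest counts, without which it was -0.36. Rpl7l1 was at 0.18 and 0.11 beside Rpl7 at -0.06 and -0.02 (0.02 without that cell). Rpl22 was at -0.12 and 0.43. Rps27, Rpl22l1 and Rpl3 were below a mean of 5 counts.

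Rpl13a, a large-subunit protein also known from interferon-dependent control of translation, had, in X-Mus O-Cast cells, the largest positive fold among members that averaged 20 or more counts. Its median level was 4.98 in X-Mus X-Cast cells (3.52 to 7.21), 6.47 in X-Cast O-Mus cells (range 3.67 to 12.8) and 8.78 for the X-Mus O-Cast class (range 6.27 to 15.2). Every one of the 9 X-Mus O-Cast cells was above the X-Mus X-Cast median and 8 above its maximum, which 6 of 15 X-Cast O-Mus cells exceeded too. The log2 folds were 0.43 and 0.88, and the other genes of its chromosome 7 had 0.10 and 0.26.

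**Figure D5:**
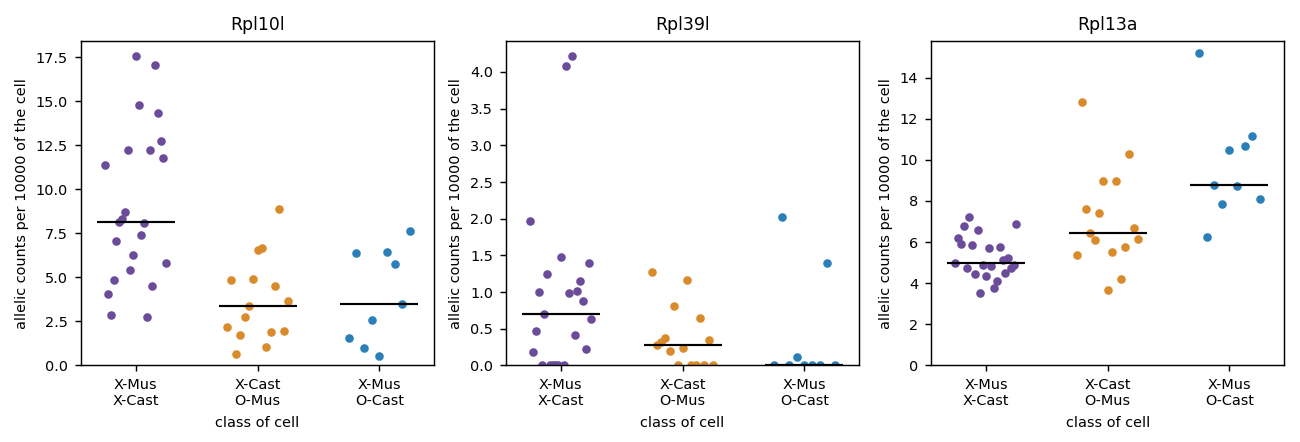
Levels of Rpl10l, Rpl39l and Rpl13a per cell, in allelic counts per 10000 of the cell, with class medians as bars. Rpl10l is lower in both single-X classes (medians 3.36 and 3.49 against 8.12), and Rpl13a is higher in X-Mus O-Cast cells (8.78 against 4.98).

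The remaining genes past 1.5-fold were less firm. In X-Mus O-Cast cells Rps15, which sits near the decoding site, had a log2 fold of 0.72, and the large-subunit gene Rpl36 0.64. Rplp1 at 1.16 and Rpl37 at 0.87 rested on 492 and 244 counts. Without the cell of fewest counts Rpl36 was at 0.35, and without another X-Mus O-Cast cell Rpl37 was at 0.46, both within 1.5-fold. Rplp1 was at 0.74 without the cell of fewest counts and at 0.01 by medians over cells. The median of the 57 members in this class was 0.16 without the cell of fewest counts, in place of 0.23, and the fold changed sign for 8 of them. Lower were Rpl11 at -1.11, Rpl27a at -0.99 and Rps23, a decoding-centre protein, at -0.98. Rps23 was the only member higher in X-Cast O-Mus cells, at 0.64, and it came within 1.5-fold on leaving out any of 8 single cells, with a range of 0.49 to 0.80. With the mean of log values, 1 member each was past 1.5-fold in X-Mus O-Cast cells, Rpl13a higher at 0.76 and Rpl10l lower.

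Rpl11, which with Rpl5 and 5S ribosomal RNA can bind Mdm2 and so link ribosome assembly to p53, showed overlap in every class. Its median level was 1.67 in X-Mus X-Cast cells (0 to 3.04), 0.61 in X-Cast O-Mus cells (range 0.099 to 3.92) and 0.66 for the X-Mus O-Cast class (range 0 to 1.06). The log2 fold was -0.05 in X-Cast O-Mus cells, where the highest cell lay above the X-Mus X-Cast range.

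Rpl11, and Rpl5 below the filter, are genes of Diamond-Blackfan anaemia too, and Rpl11 was lower in X-Mus O-Cast cells as given above. The other 6 genes listed here for that disease (Rps19, Rps24, Rps26, Rpl35a, Rps7 and Rps10) were within 1.5-fold in either class, with log2 folds from -0.21 to 0.10 for X-Cast O-Mus and from 0.14 to 0.45 for X-Mus O-Cast. Without the cell of fewest counts the latter ran from -0.01 (Rpl35a) to 0.33. The stalk base Rplp0 was at 0.09 and 0.16, with a range of 25.1 to 46.8 over all cells. Small-subunit genes had medians of 0.07 and 0.27, and large-subunit genes -0.02 and 0.20, and the second values were 0.16 and 0.14 without that cell. Of 12 translation genes with the pyrimidine tract that passed the filter, 0 were past 1.5-fold in X-Cast O-Mus and 1 was higher in X-Mus O-Cast cells, with medians of -0.02 and -0.02 (the second 0.02 without that cell). Of 23 ribosome biogenesis genes, 1 was higher and 2 lower in X-Cast O-Mus and 0 and 3 in X-Mus O-Cast cells, with medians of 0.05 and 0.10. The lists of regulators (4 genes, medians 0.20 and -0.03, the second 0.01 without that cell) and of Fau and Rack1 (0.10 and 0.20) had 1 lower regulator in X-Mus O-Cast cells and no other gene past 1.5-fold.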

How the data were processed

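RNA of single induced pluripotent stem cells on 1 plate was captured after sorting into a GpC methylase mix and amplified by the G&T-seq procedure. The authors deposited allelic read counts per gene, as whole numbers and not normalized, with 2 columns per cell, Cast and Mus. Per the labels, STAR 2.5.3a and SAMtools were used with mm10. For allele-specific Smart-seq2 reads the methods describe SNP positions masked in the genome, SNPsplit, counting at SNP positions and a minimum of 4 SNPs per gene, and do not describe the G&T-seq plate apart. A read over several SNPs may therefore count more than once, and reads shared with pseudogenes may be split. The SNP list described there sets an SvImJ strain for Mus against CAST_EiJ for Cast. Mus counts are thus calls by the SvImJ list, and how closely the mother matched that strain was not tested.

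Counts were divided by the cell total and multiplied by 10000. Folds compare class means of genes averaging 5 or more counts in a cell, called past 1.5-fold, with a class at 0 set to 3 counts. Mus shares were pooled over cells, with Clopper-Pearson intervals of 95%, and called outside 15 to 85% with at least 100 counts, or 20 counts in a cell. X-linked members used X-Mus X-Cast cells. The class in the column names and the mean Mus share of X-linked genes gave the same class for 47 of 47 cells. Depth was 71682 to 216451 counts per cell. Stretches of 50 bases were searched in both directions over the transcripts of GENCODE M21. Pairs were aligned locally, and the stretches of a pair were compared in the sense direction only. Steps ran in Python 3.11.15 with pandas 2.3.3, Biopython 1.88, numpy 2.4.6, matplotlib 3.10.9 and scipy 1.17.1, and the fold and share steps were tested on simulated data.

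The members and gene lists were chosen with earlier results of these data known, and no list is support for its direction. Named genes are the X-linked members, paralog pairs, stalk, 5S particle and Diamond-Blackfan anaemia genes, the 5 members of most and 3 of fewest counts, the 5 of lowest and 5 of highest Mus share, those past 1.5-fold (at most 5 per direction), and the 3 at either end of co-variation and of allelic spread. Rpl36, Rpl37a, Rps16-ps2, Rps18, Rpl10a and Rpl24, outside this rule, were named after their values were seen. Some members enter the sums and counts but are not reported here by name or in the plots. Mitochondrial ribosomal protein genes and lineage markers (0 of 7 past the filter) were not analysed here further. No test between classes was run. Alternatives were other denominators, filters, averages, folds and cells left out.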

Additional observations from a re-analysis of the deposited data

Results flagged for a closer look

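In the class of 9 X-Mus O-Cast cells, the only one of a size at which a single cell was tested against its class, 5 of 30 measures had a cell far from the others, and in each it was the same cell, the one of fewest counts (71682). Chance flags about 1 in 20 groups. In each, the gap to the next cell took up a large part of the class range (Dixon's test). Rps27l had a level of 81.2 in this cell, against 27.7 in the next. Rpl34 was at 39.3 against 21.7 and Rps28 at 33.8 against 19.5. Rpl10 was at 2.09 against 0.83 and Rpl35a at 5.58 against 3.79. The cell had 2918 genes with a count and a ribosomal protein share of 6.84%. The part of its low depth in these levels was not tested.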

How the results depend on the processing

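No paired analysis was possible because no result comes from a test between classes and the labels give no replicate numbers, only well positions on the plate. The median ribosomal protein share over all cells, 4.00%, became 5.06% of autosomal counts, 4.97% of counts that are not mitochondrial, 2.18% without members of extreme share and 2.64% without the 5 members of most counts. With limits of 5 and 95%, 9 members lay below and 3 above (4.81% of autosomal genes outside), and with at least 2000 counts 13 lay below. The median difference in Mus share of -7.79 points was -11.7 as a median over genes, -9.74 without chromosome 1 and 2.22 without members of extreme share, where the other genes keep theirs. With such genes left out on both sides, a choice made after seeing the data, it was -0.83. Counts past 1.5-fold in X-Cast O-Mus cells (1 higher, 3 lower) were 2 higher by median of ratios, 4 and 6 with a mean of at least 1 count, 0 and 1 with a mean of 20, 0 and 1 by means of log values, 3 higher by medians, and 0 higher at 2-fold. In X-Mus O-Cast cells (6 and 5) they were 12 and 8 with a mean of at least 1 count, 3 and 2 with a mean of 20, 1 and 1 by means of log values, and 1 and 3 at 2-fold. Leaving out 1 cell at a time gave 0 to 3 higher and 2 to 3 lower in X-Cast O-Mus and 4 to 6 higher and 5 to 6 lower in X-Mus O-Cast cells. Rps4x with Rps4x-ps was at 34.3% and 91.6%, against 2.83% and 130.8% alone. Rps23 in X-Mus O-Cast cells was at -0.27 by means of log values. The cause of the other shifts was not tested. Fewer members were past 1.5-fold at a mean of 20 counts, and the part of genes with few counts in the class differences was not tested.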
